A study of Mus musculus with 10 samples.

Results

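The gene expression of cells tagged during foot shock was compared with that of cells tagged during a neutral experience, over all genes. The members were the libraries whose labels give them to these groups, 2 aversive and 3 neutral, which made 5 of the 10 libraries of the series. Mice of the aversive group received 4 foot shocks of 2 s at 1.5 mA, and mice of the neutral group were placed in the same conditioning cage with no shock and no rewarding stimulus. The other libraries were 3 mock (males kept in the home cage) and 2 appetitive (males given 1 h with a female). All groups were 5-week-old males that carried a virus pair, in which a c-Fos promoter drives the tTA transactivator and tTA drives the light-gated channel ChR2 fused to EYFP, so that cells active while doxycycline was withdrawn were marked. Hippocampal tissue of 8 mice per condition was pooled, dissociated and sorted for EYFP. The study describes the sorted material as cells in one place and as nuclei in another, which bears on how values of mitochondrial and nuclear RNAs are read. The study's methods give 2 mice for mock and call it untagged. The sources do not say whether libraries of one group came from separate pools, so p-values may measure technical spread.

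The c-Fos gene is switched on within minutes of strong neuronal firing, and a c-Fos promoter therefore marks cells that were active during an experience. In the ventral hippocampus such ensembles are studied as carriers of the emotional content of memory. A sort of dissociated brain tissue can also hold glia: astrocytes take up synaptic glutamate, microglia release chemokines and cytokines, oligodendrocytes make myelin, and the choroid plexus and the ciliated ependyma line the ventricles next to the hippocampus.

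The neutral libraries were made with another version of the SMART-Seq v4 kit and read on another sequencer than all other libraries, so that the neutral experience and the preparation cannot be told apart. The aversive libraries shared their preparation with mock and appetitive, and values of those libraries are given beside many of the leading genes. Gene counts per library totalled 27159427 and 39172609 in aversive and 60077131 to 67650693 in neutral. Replicates were less alike in aversive (Spearman rho across genes 0.64) than in neutral (0.77 to 0.86), and the 10 most abundant genes took 41.5% of the reads of aversive replicate 1 against 18.2% in aversive replicate 3. Levels are CPM, gene counts scaled to a common library total with TMM factors, fold changes are aversive over neutral on the log2 scale with their standard error, and coordinates are on GRCm38.

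The neuronal label was checked first. The 12 pan-neuronal markers summed to 821 and 565 CPM in aversive and 149 to 281 CPM in neutral. Snap25, a vesicle fusion protein of neurons, was at 422 and 122 CPM in aversive and at 24.4, 15.1 and 21.2 CPM in neutral. Eno2, a glycolytic enzyme of neurons, was at 46.99 and 27.2 CPM in aversive and at 195, 33.2 and 95.7 CPM in neutral, overlapping, and made up most of the sum in neutral replicate 1. Of the 12 pan-neuronal fold changes 9 were positive and 3 negative. Of the 12 pyramidal neuron markers, 7 had no read in aversive replicate 1 and 3 had none in aversive replicate 3. In neutral replicates 1 to 3, the markers with no read numbered 4, 2 and 3. Slc17a7, the vesicular glutamate transporter of pyramidal cells, was at 16.8 and 25.7 CPM in aversive and at 0.0158, 0.0115 and 5.55 CPM in neutral. Myelin genes took far more of the reads: the 12 oligodendrocyte markers summed to 412200 CPM in aversive replicate 1, to 27340 CPM in aversive replicate 3 and to 7603 to 37280 CPM in neutral.

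Of 19754 genes tested, 8 (0.0405%) were called at an adjusted p under 0.05 by edgeR's quasi-likelihood test, and all of them were higher in aversive. No gene passed the study's stricter threshold of an adjusted p under 1e-05 with more than 4-fold change. An unadjusted p under 0.05 was reached by 3765 genes (19.1%), 1636 higher (8.28%) and 2129 lower (10.8%). DESeq2 on the same 10 libraries placed 692 genes past the stricter threshold. The 8 calls depended on single libraries: none remained when any 1 of the 3 mock libraries, the 2 aversive libraries or neutral replicates 1 and 2 was left out. Without neutral replicate 3, 3 genes were called, of which 2 were among the 8. Without appetitive replicate 1 or 2, 453 or 450 were called, and all 8 were kept. The groups' libraries did not overlap for 2838 genes that were higher (14.4%) and for 3816 that were lower (19.3%), and these shares are the background for the counts of list members that follow. The median log2 fold change over all tested genes was −0.15, −0.002 with DESeq2 size factors, −0.40 when scaled by library size alone and −1.20 without aversive replicate 3.

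Of the 8 called genes, 5 were Slc1a2, F3, Scg3, Luzp2 and Etnppl. Slc1a2 (chromosome 2, 102658659 to 102790784, plus strand) encodes the main glutamate transporter of astrocytes. It was at 1167 and 2105 CPM in aversive and at 2.71, 6.31 and 17.9 CPM in neutral. The fold change was 7.51 ± 0.94 (adjusted p = 0.0357). In mock it was at 1395, 524 and 577 CPM and in appetitive at 765 and 803 CPM, so that the neutral libraries alone lay low. Gm13872 overlaps Slc1a2 on the other strand, and because strand was ignored in counting their reads cannot be told apart.

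F3 (chromosome 3, 121723537 to 121735048, plus strand) encodes tissue factor, the starter of blood coagulation, which astrocytes make in brain. It was at 588 and 415 CPM in aversive and at 4.18, 11.4 and 7.36 CPM in neutral, a fold change of 6.04 ± 0.78 (adjusted p = 0.0357). Mock held 193 to 457 CPM of F3 and appetitive 612 and 237 CPM. Scg3 (chromosome 9, 75643189 to 75684056, minus strand) encodes secretogranin III, a protein of secretory granules. It was at 441 and 389 CPM in aversive and at 4.46, 7.36 and 13.9 CPM in neutral, a fold change of 5.60 ± 0.75 (adjusted p = 0.0357). Mock libraries held 238 to 541 CPM of Scg3 and appetitive ones 264 and 346 CPM. Gm37871 overlaps Scg3 on the other strand.

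Luzp2 (chromosome 7, 54835498 to 55268885, plus strand) was at 229 and 211 CPM in aversive and at 0.316, 0.162 and 1.39 CPM in neutral, a fold change of 8.46 ± 1.13 (adjusted p = 0.0357). Several predicted genes overlap it on both strands. Mock libraries held 205 to 599 CPM of Luzp2. Its appetitive libraries, at 31.7 and 26.2 CPM, lay between the aversive and the neutral ones. Etnppl (chromosome 3, 130617448 to 130637521, plus strand), the ethanolamine phosphate phospho-lyase found in astrocytes, was at 53.8 and 36.7 CPM in aversive. Neutral held 1 read of it in 1 library and none in the others. Measured against the limit that 3 reads per library allow, Etnppl was at least 956-fold higher (adjusted p = 0.0479), or 776-fold without aversive replicate 1. In mock it was at 28.2 to 38.2 CPM and in appetitive at 68.7 and 8.49 CPM.

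**Figure D1:**
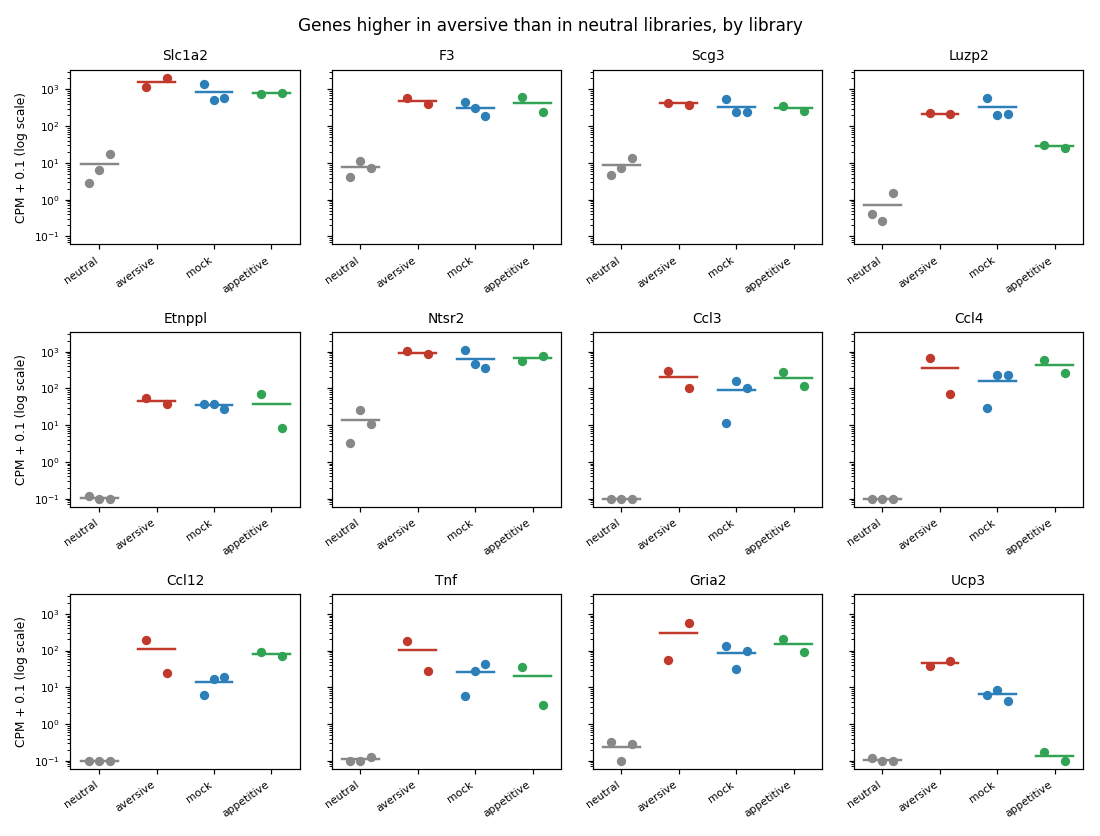
Level of 12 genes in each of the 10 libraries, as CPM plus 0.1 on a log scale; points are libraries and lines are group means. Ucp3 sat at 36.8 and 52.0 CPM in aversive, above all other libraries, while Slc1a2, F3, Scg3, Ccl3, Ccl4 and Ccl12 were lower in every neutral library than in all others.

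The wider astrocyte list was one-sided. Of its 16 members, 14 did not overlap between the groups and were higher, against 14.4% of all genes, and 13 of 16 were higher at an unadjusted p under 0.05, against 8.28%, with 1 lower. The median fold change of the list was 4.48 and stayed between 4.13 and 4.55 when either aversive library was left out. Slc1a3, the other astrocytic glutamate transporter, was at 1190 and 2097 CPM in aversive and at 18.1, 89.0 and 41.5 CPM in neutral (5.05 ± 0.84, adjusted p = 0.0698). Aldoc, a glycolytic enzyme of astrocytes, was at 1678 and 1493 CPM in aversive and at 114, 141 and 136 CPM in neutral (3.60 ± 0.67, adjusted p = 0.085). Ntsr2, a neurotensin receptor, was at 1017 and 866 CPM against 3.23, 26.1 and 10.97 CPM (6.13 ± 0.92, adjusted p = 0.0673). For these 3 genes too, every neutral library lay below every library of the other groups.

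The list's 2 exceptions, named after their values were seen, were Sox9 and Slc7a10. Sox9, a transcription factor also made by ependymal and choroid plexus cells, was at 107 and 194 CPM in aversive and at 272, 96.5 and 192 CPM in neutral, and the groups overlapped. Slc7a10, an amino acid transporter, was at 230 and 118 CPM in aversive and at 1314, 176 and 1056 CPM in neutral. The astrocyte list summed to 8268 and 9844 CPM in aversive, to 871 to 1802 CPM in neutral and to 4987 to 20720 CPM in the other libraries. In these bulk libraries, fewer cells of a type and less RNA per cell cannot be told apart.

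Mmd2, Fam198a and Ucp3 were also among the genes with the smallest p that missed the adjusted threshold. Mmd2 was at 646 and 457 CPM in aversive and at 8.06, 1.09 and 6.82 CPM in neutral (6.69 ± 1.02, adjusted p = 0.0698). Ucp3, a mitochondrial uncoupling protein, was at 36.8 and 52.0 CPM in aversive and had at most 1 read in a neutral library, at least 938-fold higher. It differed from the genes above in the other groups, with 4.10 to 8.59 CPM in mock and 0.0782 and 0 CPM in appetitive, so that the aversive libraries lay above all 8 others. Only 502 genes (2.54%) had both aversive libraries above the other 8. Gm10603 overlaps Ucp3 on the other strand. Fam198a was at 75.1 and 23.9 CPM in aversive with no read in neutral, and at 11.1 to 34.0 CPM in mock. It was at least 1046-fold higher, and at least 506-fold without aversive replicate 1 or 1587-fold without aversive replicate 3.

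The other 3 called genes were the chemokines Ccl3, Ccl4 and Ccl12, which attract monocytes and T cells and which activated microglia release. Ccl3 and Ccl4 are neighbours on chromosome 11 (83647844 to 83649355, minus strand, and 83662584 to 83664683, plus strand). Ccl12 and Ccl7 lie on the same chromosome (82101845 to 82103400 and 82045712 to 82047525, both plus strand). To show the promoters of this group of co-varying genes, the 250 bases before the start are printed for Ccl3, Ccl12 and the cytokine gene Tnf, from RefSeq on GRCm38.p6, each 5′ to 3′ on the gene's strand. They lie at chr11:83649379-83649628 (minus), chr11:82101595-82101844 (plus) and chr17:35202008-35202257 (minus). Capitals mark matches on either strand to the TATA box core TATAAA or to GGGNNNNNCC, the outline of an NF-kB site.
Ccl3: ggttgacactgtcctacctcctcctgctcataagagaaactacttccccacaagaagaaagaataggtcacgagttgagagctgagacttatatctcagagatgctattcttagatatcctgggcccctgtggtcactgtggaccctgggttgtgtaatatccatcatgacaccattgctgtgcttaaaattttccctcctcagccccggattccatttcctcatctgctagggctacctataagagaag
Ccl12: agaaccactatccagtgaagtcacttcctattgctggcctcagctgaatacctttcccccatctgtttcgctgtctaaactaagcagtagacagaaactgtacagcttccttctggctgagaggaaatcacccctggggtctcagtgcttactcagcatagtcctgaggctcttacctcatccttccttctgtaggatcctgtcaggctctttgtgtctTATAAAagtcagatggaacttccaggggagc
Tnf: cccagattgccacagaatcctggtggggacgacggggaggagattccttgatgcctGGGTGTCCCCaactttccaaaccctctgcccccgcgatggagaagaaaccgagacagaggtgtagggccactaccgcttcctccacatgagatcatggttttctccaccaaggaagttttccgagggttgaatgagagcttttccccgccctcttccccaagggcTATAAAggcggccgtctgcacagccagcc

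TATAAA was found 26 to 31 bases before the start of Ccl12 and 24 to 29 bases before that of Tnf, and GGGNNNNNCC 185 to 194 bases before that of Tnf. The window of Ccl3 held no match to either pattern, nor did any of the 3 windows match the AP-1 pattern TGANTCA. Among all 32851 RefSeq promoters of the same length, 12.4% held TATAAA, 45.8% held GGGNNNNNCC and 6.7% held TGANTCA. Of 21 chemokine promoters in the same table, 8 held TATAAA, 11 GGGNNNNNCC and 2 TGANTCA. A match of letters is a description of the sequence and not evidence of binding.

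Ccl3 was at 292 and 104 CPM in aversive, and not 1 read of it was counted in the 3 neutral libraries. This made Ccl3 higher by a factor of at least 4185 (adjusted p = 0.0357). Ccl4 was at 654 and 71.8 CPM in aversive, again with no read in neutral, at least 7667-fold higher (adjusted p = 0.0357). Ccl12 was at 198 and 23.8 CPM in aversive with no read in neutral, at least 2339-fold higher (adjusted p = 0.0357). Without aversive replicate 1 these bounds were 2199 for Ccl3, 1518 for Ccl4 and 503 for Ccl12, and without aversive replicate 3 that of Ccl4 was 13820 and that of Ccl12 4174. Their mock libraries held 11.4 to 163 CPM of Ccl3, 28.6 to 235 CPM of Ccl4 and 6.13 to 19.2 CPM of Ccl12, and their appetitive libraries 120 to 274, 267 to 583 and 71.1 to 91.6 CPM. Thus only the neutral libraries lacked these transcripts. Ccl7 was at 55.4 and 30.6 CPM in aversive and at 0 in neutral, at least 908-fold higher, with an adjusted p of 0.0673. In appetitive it was at 0.156 and 0.262 CPM.

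Of the 25 chemokine genes tested out of 29, 10 were higher without overlap and 1 was lower, against 14.4% and 19.3% of all genes. Their median fold change was 4.14, and 3.34 with genes at the detection limit set to their bound. It was −0.41 without aversive replicate 1, in which Ccl3, Ccl4, Ccl7 and Ccl12 were all higher than in aversive replicate 3. The lower member was Cx3cl1, a chemokine made by neurons, named here after its values were seen, at 9.86 and 22.8 CPM in aversive and at 76.4, 40.5 and 68.9 CPM in neutral. The 15 chemokine receptors tested had a median of 0.76, which was −1.17 without aversive replicate 3, 0.00 without aversive replicate 1 and 2.94 without neutral replicate 3.

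Inflammatory cytokines carry the alarm signal between immune cells. Of 13 tested, 6 were higher without overlap, 6 were higher at an unadjusted p under 0.05 (background 8.28%), and none was lower by either count. Tnf, a master cytokine of inflammation, was at 181 and 27.9 CPM in aversive and at 0, 0 and 0.0257 CPM in neutral, at least 2207-fold higher (adjusted p = 0.0698), 590-fold without aversive replicate 1 and 3824-fold without aversive replicate 3. Il1a, an interleukin 1, was at 814 and 33.2 CPM in aversive and at 0.0946, 0 and 4.19 CPM in neutral (8.21 ± 2.25, adjusted p = 0.149). Both aversive libraries lay above neutral for the pair, and aversive replicate 1 lay above replicate 3. Mock libraries held 5.61 to 42.2 CPM of Tnf and 53.2 to 206 CPM of Il1a.

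The NF-kB response list, target genes of that transcription factor, had a median fold change of 2.63 over 13 members, with 2 higher without overlap and 4 at an unadjusted p under 0.05. Without aversive replicate 1 the median was 0.26 and no member reached that p, and without neutral replicate 2 it was reached by 2. Cd14, a receptor for bacterial lipopolysaccharide, was at 524 and 6.85 CPM in aversive and at 0, 6.45 and 3.70 CPM in neutral (adjusted p = 0.174). Zfp36, which destabilises cytokine mRNAs, was at 788 and 199 CPM in aversive and at 70.1, 108 and 46.1 CPM in neutral (adjusted p = 0.174). Mock held 53.0 to 418.6 CPM of Cd14 and 154.5 to 819.7 CPM of Zfp36. Appetitive held 192.8 and 123.6 CPM of Cd14 and 505.6 and 142.8 CPM of Zfp36. Against mock the median log2 fold change of the list was −0.09.

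Among the cell type lists, microglial identity genes had the highest share of members higher without overlap. Of 19 members, 18 were higher in both aversive libraries than in all neutral ones, and 14 had an unadjusted p under 0.05, or 8 without aversive replicate 1. No member passed the adjusted threshold. The summed level was 11210 and 4091 CPM in aversive, 51.4 to 685 CPM in neutral and 1906 to 14840 CPM in mock and appetitive. C1qb, a chain of complement C1q, was at 2119 and 612 CPM in aversive and at 3.96, 78.3 and 54.9 CPM in neutral (4.90 ± 1.20, adjusted p = 0.123). Ctss, a lysosomal protease, was at 1645 and 524 CPM against 0.158, 56.1 and 54.9 CPM (adjusted p = 0.169).

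Sall1, a transcription factor of resident microglia and the exception in the list, was at 0.0501 and 5.79 CPM in aversive and at 0, 6.64 and 3.76 CPM in neutral. It was named after its values were seen. For 12 of the 19 members every neutral library lay below the 7 others, against 585 of all genes (2.96%). The activated microglia list was mixed, with 5 of 11 members higher and 2 lower without overlap. Cst7, a cystatin induced in activated microglia, was at 17.5 and 31.3 CPM in aversive, with no read in neutral and 0.637 to 1.80 CPM in mock, and its aversive libraries exceeded all 8 others (adjusted p = 0.101). Fth1, the ferritin heavy chain, which many cells express, was at 51110 and 7797 CPM in aversive and at 1710 to 2538 CPM in neutral (adjusted p = 0.157). Among 10 tested markers of blood leukocytes the median was −2.05, and 1 was higher and 2 were lower without overlap. Without aversive replicate 1 this median was −6.00, and without neutral replicate 3 it was 3.33. The higher one was Cd48, at 27.9 and 27.7 CPM with no read in neutral, and at 5.42 to 19.4 CPM in mock.

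**Figure D2:**
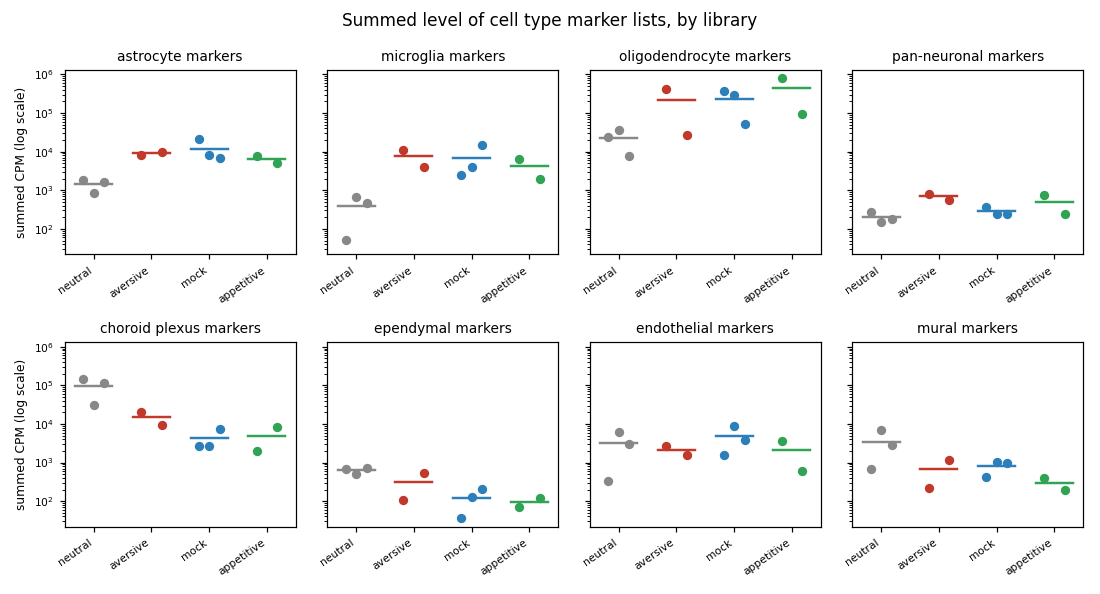
Summed CPM of 8 cell type marker lists in each library, on a log scale, with a line at each group's mean. Astrocyte, microglia and pan-neuronal markers summed to more in both aversive libraries than in any neutral library, choroid plexus markers to less, and oligodendrocyte, ependymal, endothelial and mural sums overlapped.

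Genes of the synapse were next. Of 12 pan-neuronal genes, 7 were higher without overlap and none lower, and 4 had an unadjusted p under 0.05, or 2 without neutral replicate 1. For 4 of the 12 the aversive libraries lay above all 8 others. The ionotropic glutamate receptors, the channels that carry fast excitation, had a median fold change of 4.49 over 17 subunits, with 7 higher without overlap, none lower, and 9 at an unadjusted p under 0.05. Without aversive replicate 3 the median was 0.00 and 5 reached that p.

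Gria2, the AMPA receptor subunit that makes the channel impermeable to calcium, was at 56.9 and 552 CPM in aversive and at 0.221, 0 and 0.180 CPM in neutral (11.14 ± 1.77, adjusted p = 0.0698). In mock it was at 31.4 to 130 CPM and in appetitive at 91.8 and 204 CPM. Grin2c, an NMDA receptor subunit also known in astrocytes, was at 57.9 and 140 CPM in aversive and at 0, 0.670 and 0 CPM in neutral (adjusted p = 0.152). The metabotropic glutamate receptor list, whose members act through G proteins, had 1 of 7 members higher without overlap. Its median was 2.42, and 0.00 without aversive replicate 3, 5.83 without mock replicate 1, 5.81 without mock replicate 3 and 8.71 without neutral replicate 2.

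GABA-A receptor subunits, which form the channels of fast inhibition, had a median of 3.33 over 12 members, with 3 higher without overlap. It was −0.52 without aversive replicate 3. Gabrg1, a subunit known in glia, was at 38.3 and 38.7 CPM in aversive, with 1 read in 1 neutral library and none in the others. It was at least 813-fold higher than in neutral (adjusted p = 0.084). Mock held 51.1 to 163 CPM of Gabrg1, above both aversive libraries, and appetitive 0 and 4.61 CPM. Gabrb1 was at 18.5 and 280 CPM in aversive and at 25.9, 0.832 and 15.1 CPM in neutral, and the groups overlapped. Gabra4 and other genes overlap it on the opposite strand.

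Adhesion receptors of the BAI and latrophilin families, several of which bind partners across the synapse, were higher without overlap in 6 of 7 cases. In this list 5 members had an unadjusted p under 0.05. Their median of 4.97 was 2.57 without aversive replicate 3, when 2 reached that p. Adgrb2 was at 36.1 and 20.5 CPM in aversive with no read in neutral, at least 598-fold higher (adjusted p = 0.0698). Adgrl1, or latrophilin 1, was at 27.9 and 178 CPM in aversive and at 10.6, 12.9 and 14.97 CPM in neutral (adjusted p = 0.179). For both genes the aversive libraries lay above the 8 others. Adgrl4, also among the 6 without overlap, was at 315 and 114.5 CPM in aversive and at 0, 83.1 and 76.9 CPM in neutral (adjusted p = 0.624). Mock held 72.1 to 488 CPM of Adgrl4. The Slitrk family, a further group of synaptic adhesion proteins, had a median of 3.43 over 6 members, which was 0.00 without aversive replicate 3 and 6.32 to 6.97 without neutral replicate 2, mock replicate 1 or mock replicate 3. Slitrk2 was at 24.2 and 23.7 CPM in aversive and at 0, 0.0115 and 0.0257 CPM in neutral, at least 506-fold higher (adjusted p = 0.075).

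Postsynaptic scaffold and plasticity genes were higher without overlap in 11 of 20 cases and lower in 2, with a median of 1.64. The secretory granule list, in which Scg3 was called, was higher without overlap in 7 of 16 cases and lower in none. Its median was 2.43, and 1.18 without aversive replicate 1. Cpe, which trims peptide hormones, was at 3196 and 1514 CPM in aversive and at 111, 480 and 333 CPM in neutral (adjusted p = 0.163).

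Inward rectifier potassium channels, which set the resting potential, had a median of 3.88 over 9 members, with 3 higher without overlap, and 0.00 without aversive replicate 3. Kcnj10, the Kir4.1 channel that clears potassium in astrocytes, was at 36.6 and 207 CPM in aversive and at 1.85, 3.11 and 3.40 CPM in neutral (adjusted p = 0.16). Its partner Kcnj16 was at 36.2 and 34.99 CPM against 0, 0.0809 and 0.0899 CPM (9.20 ± 1.54, adjusted p = 0.0698). Mock held 53.4 to 185 CPM of Kcnj16, above both aversive libraries, and appetitive 0.156 and 0.0524 CPM.

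Pyramidal neuron markers had a median of 0.00 over 11 members, with 5 fold changes positive and 5 negative, 3 members higher without overlap and none lower. At an unadjusted p under 0.05, 2 were higher and 1 lower. That median was −5.49 without aversive replicate 3 and 2.21 without neutral replicate 1. Nrgn, a calmodulin-binding protein of dendrites, was at 209 and 150 CPM in aversive and at 10.8, 19.3 and 9.20 CPM in neutral (3.77 ± 1.10, adjusted p = 0.16). Camk2a, the plasticity kinase of excitatory neurons, was at 48.4 and 144 CPM against 9.69, 6.48 and 12.5 CPM (adjusted p = 0.281). The lower member was Emx1, a homeobox factor of cortical excitatory neurons named after its values were seen, with no read in aversive and 15.3, 0 and 12.7 CPM in neutral (adjusted p = 0.198). Interneuron markers had a median of 4.14 at low levels, summing to 97.0 and 39.8 CPM in aversive and to 5.69 to 14.9 CPM in neutral, and 4 of 11 were higher and 1 lower without overlap. Of the 5 dentate granule markers none was separated between the groups, and their median of 2.79 was −3.57 without aversive replicate 3.

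No gene was called lower in aversive by edgeR, although 2129 had an unadjusted p under 0.05 and DESeq2 placed 408 lower genes past the stricter threshold. Among the genes with the smallest p, one pattern was near absence from both aversive libraries alone. Pramef8 (chromosome 4, 143412426 to 143421091, plus strand), of the PRAME family, was at 0.0501 and 0.0601 CPM in aversive and at 62.3, 41.0 and 13.2 CPM in neutral, at least 259-fold lower (adjusted p = 0.0698). Without aversive replicate 1, whose floor is the higher one, this bound was 646-fold, and those of the other lower genes also rose. In mock it was at 8.96 to 20.3 CPM and in appetitive at 94.9 and 160 CPM. PRAME family genes have near-identical copies, so its count is uncertain.

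Exosc9 (chromosome 3, 36552606 to 36565727, plus strand), a core subunit of the RNA exosome that degrades RNA from the 3′ end, was at 0.1 and 0.0802 CPM in aversive. It was at 18.9, 36.8 and 32.3 CPM in neutral, a fold change of −8.32 ± 1.35 (adjusted p = 0.0698). Mock held 18.2 to 31.1 CPM and appetitive 49.1 and 156 CPM. Ccna2 overlaps Exosc9 on the other strand. Against mock, prepared as the aversive libraries were, the fold change of Exosc9 was −8.03 ± 1.34, with an adjusted p of 0.465.

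Gtpbp8 (chromosome 16, 44736768 to 44746363, minus strand), a GTP-binding protein, was at 0.0501 and 0.140 CPM in aversive and at 40.4, 24.0 and 32.6 CPM in neutral (−8.31 ± 1.47, adjusted p = 0.0796). Mock held 10.7 to 17.4 CPM and appetitive 28.2 and 54.9 CPM. Dvl3 (chromosome 16, 20516982 to 20534010, plus strand), a dishevelled protein that relays Wnt signals, was at 0.1 and 0.140 CPM in aversive and at 39.5, 34.7 and 34.9 CPM in neutral (−8.19 ± 1.55, adjusted p = 0.0938). Its mock and appetitive libraries held 5.16 to 17.8 CPM. For these 4 genes both aversive libraries lay below all 8 others, which held for 336 genes (1.70%). Nepro overlaps Gtpbp8 and Gm16618 overlaps Dvl3 on the other strand.

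Another pattern was near absence from both the aversive and the appetitive libraries. Fbxo30, a substrate-binding subunit of a ubiquitin ligase, was at 0 and 0.0802 CPM in aversive and 0 and 0.0524 CPM in appetitive. It was at 69.8, 79.7 and 42.1 CPM in neutral and at 29.7 to 44.1 CPM in mock (−10.34 ± 1.78 against neutral, adjusted p = 0.075). That fold change rests on 0 and 4 reads of Fbxo30 in aversive, so its size is poorly resolved. The same holds for Exosc9, Gtpbp8 and Dvl3, with 1 to 7 reads per aversive library. Mindy4, of a deubiquitinase family, had no read in aversive and 16.9 to 70.3 CPM in neutral, at least 314-fold lower. Rbpms2, an RNA-binding protein of smooth muscle, was at 0.150 and 0.0401 CPM in aversive and at 43.1, 74.6 and 62.3 CPM in neutral, at least 400-fold lower (adjusted p = 0.084).

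Gprc5c, an orphan receptor, was at 0.150 and 0.381 CPM in aversive and at 86.2, 151 and 84.4 CPM in neutral (−8.61 ± 1.53, adjusted p = 0.085). Ntn4, a netrin of basement membranes, was at 0.1 and 0.581 CPM against 52.0, 551 and 288 CPM (−9.71 ± 1.62, adjusted p = 0.0698). Col18a1, collagen XVIII of basement membranes, was at 0 and 0.0200 CPM against 45.3, 113 and 56.6 CPM, at least 477-fold lower, and Slc19a1 overlaps it on the other strand. Ccdc17 was at 0 and 0.0200 CPM against 97.8, 31.4 and 91.9 CPM, at least 491-fold lower, and C530005A16Rik overlaps it on the other strand. In all of Mindy4, Rbpms2, Gprc5c, Ntn4, Col18a1 and Ccdc17, mock lay between the neutral libraries and the others, from 3.19 to 40.1 CPM.

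In a further set of genes the neutral libraries stood above all others. Msx1, a homeobox transcription factor, was at 52.8 and 29.7 CPM in aversive and at 2075, 552 and 1268 CPM in neutral (−4.98 ± 0.92, adjusted p = 0.085). Mock held 26.4 to 48.4 CPM and appetitive 36.2 and 119 CPM. Pcolce, which enhances procollagen processing, was at 5.15 and 9.78 CPM in aversive and at 398, 126 and 427 CPM in neutral (−5.41 ± 0.96, adjusted p = 0.0796), with 8.96 to 17.4 CPM in mock, and Fbxo24 and Gm36266 overlap it. C1qtnf12, a secreted C1q-like protein, was at 1.70 and 1.28 CPM against 152, 69.8 and 122 CPM (−6.26 ± 1.18, adjusted p = 0.0931), and its mock libraries, at 2.95 to 6.77 CPM, lay above both aversive ones. Pcolce and C1qtnf12 were at 0.0782 and 0.0524 CPM in appetitive. The neutral libraries lay above the 7 others in 1243 genes (6.29%).

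**Figure D3:**
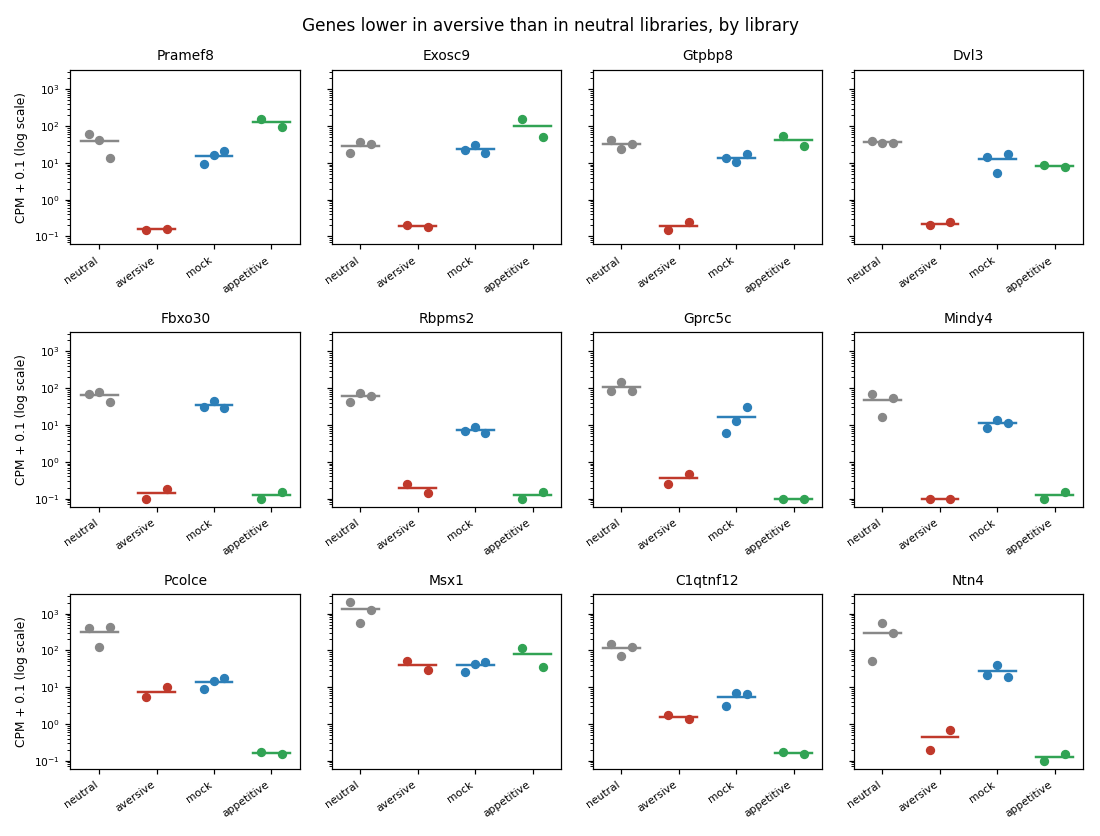
Level of 12 genes in each of the 10 libraries, as CPM plus 0.1 on a log scale; points are libraries and lines are group means. Pramef8, Exosc9, Gtpbp8 and Dvl3 were at 0.140 CPM or below in both aversive libraries and present in the 8 others, whereas Msx1 stood high in neutral only.

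The choroid plexus markers also stood highest in neutral. Of 9 members, 7 were lower without overlap, against 19.3% of all genes, and for 7 the neutral libraries lay above the 7 others. Ttr, the thyroxine carrier that the choroid plexus secretes, was at 13200 and 6793 CPM in aversive and at 128900, 20730 and 93600 CPM in neutral (−3.02 ± 0.91, adjusted p = 0.163). It was at 1066 to 3156 CPM in mock, below both aversive libraries. Enpp2, or autotaxin, was at 6721 and 2545 CPM against 13720, 9133 and 14760 CPM (adjusted p = 0.32). Aqp1, a water channel, was at 0.0501 and 0.321 CPM against 90.9, 26.6 and 106 CPM (−8.57 ± 2.10, adjusted p = 0.123). The list summed to 20700 and 9664 CPM in aversive, to 31150 to 148000 CPM in neutral and to 1935 to 8089 CPM in the others.

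Axoneme genes, which build motile cilia, were lower without overlap in 14 of 30 cases and higher in none, with a median of −2.29. Without aversive replicate 3 the median was −9.46. The 8 members with an unadjusted p under 0.05, all lower (background 10.8%), became 16 without that library, 2 to 5 without aversive replicate 1, neutral replicate 1, neutral replicate 3 or any mock library. Rsph9, of the radial spoke, was at 29.0 and 62.5 CPM in aversive and at 284, 93.3 and 286 CPM in neutral (adjusted p = 0.215). Ttll1, which glutamylates tubulin, was at 0.1 and 0.0200 CPM against 22.5, 29.9 and 61.8 CPM, at least 254-fold lower (adjusted p = 0.103). Cfap44 was at 10.2 and 8.02 CPM against 278, 87.7 and 134 CPM (adjusted p = 0.201).

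Ependymal markers were lower without overlap in 3 of 9 cases with a median of −1.14, and −2.63 without aversive replicate 3. Rsph1, another radial spoke protein, was at 26.1 and 135 CPM in aversive and at 239, 66.7 and 227 CPM in neutral, and the groups overlapped. The part of choroid plexus and ependymal markers in the levels of other genes was not tested.

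Vascular markers did not separate the groups. Among 11 mural genes 1 was lower without overlap, and the median of −2.32 was −6.50 without aversive replicate 3, −1.44 without aversive replicate 1 and −1.25 without neutral replicate 2. Acta2, smooth muscle actin, was at 9.46 and 690 CPM in aversive and at 446, 3136 and 1663 CPM in neutral. Rgs5, a pericyte gene, was at 27.4 and 90.8 CPM against 34.8, 1333 and 214 CPM. Both genes overlapped between the groups. The endothelial median was −0.68 over 13 genes, −1.37 without aversive replicate 1 and 0.32 without neutral replicate 2. Dcn, a proteoglycan of fibroblasts, was at 91.2 and 66.2 CPM in aversive and at 0, 0.150 and 0 CPM in neutral (10.51 ± 2.46, adjusted p = 0.117). Its neutral reads numbered 0, 13 and 0. The fibroblast list that holds Dcn had 2 of 9 members higher and 1 lower without overlap.

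All 12 oligodendrocyte markers had positive fold changes with a median of 1.40, and 4 of them were higher without overlap. The median was 3.62 without neutral replicate 2, when 10 rather than 4 members had an unadjusted p under 0.05, and 0.90 without neutral replicate 3. Mbp, myelin basic protein, was at 322300 and 8548 CPM in aversive and at 17460, 7666 and 4847 CPM in neutral, so that a single library carried the difference. Ugt8a, which makes the myelin lipid galactocerebroside, was at 318 and 273 CPM against 20.7, 122 and 23.9 CPM (2.41 ± 0.82, adjusted p = 0.179). Precursor markers gave 3 higher and 2 lower without overlap among 11, and their median of 1.73 was −4.62 without aversive replicate 3 and 3.96 without neutral replicate 2.

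Genes of DNA mismatch repair, which corrects copying errors, were lower without overlap in 10 of 22 cases and higher in 2. Their median of −1.41 was −2.97 without aversive replicate 1 and −3.54 without aversive replicate 3, and the 6 lower members at an unadjusted p under 0.05 were 3 without neutral replicate 3. Rpa1, a single-strand binding protein, was at 3.40 and 12.7 CPM against 50.5, 170 and 86.8 CPM (adjusted p = 0.267). Rfc4, a clamp loader subunit named after its values were seen, went the other way, at 44.1 and 57.0 CPM against 6.31, 1.37 and 5.68 CPM. In the Fanconi anemia list 2 of 9 were lower without overlap, and the median of −0.43 was −2.75 without aversive replicate 1 and −8.26 without aversive replicate 3. Fance was at 0 and 0.160 CPM against 33.1, 28.6 and 19.8 CPM (−8.24 ± 1.92, adjusted p = 0.117), with 0 and 8 reads in aversive.

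The RNA exosome list, which holds Exosc9, was lower without overlap in 5 of 11 cases and higher in none. Its median was −0.42, and −3.72 without aversive replicate 1. Exosc4, another core subunit, was at 11.6 and 1.26 CPM in aversive and at 90.6, 93.1 and 58.3 CPM in neutral, also below all 8 other libraries (adjusted p = 0.174). The Wnt core list, which holds Dvl3, was lower without overlap in 7 of 19 cases and higher without overlap in 2. Its median of −1.04 was −2.87 without aversive replicate 3 and −0.62 without neutral replicate 2. Apc, which marks β-catenin for destruction, was among the higher genes, at 115 and 352 CPM against 49.9, 42.1 and 54.3 CPM (2.26 ± 0.72, adjusted p = 0.17). The Hedgehog list had a median of 0.75, which was −5.75 without aversive replicate 3. Its member Gli1, the transcription factor that reads out the pathway, was at 22.6 and 48.3 CPM with no read in neutral, above all 8 other libraries and at least 749-fold higher, or 478-fold without aversive replicate 3 (adjusted p = 0.075).

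Of 290 tested members of the housekeeping complexes edgeR called 0, against 0.0405% of all genes. DESeq2 on the same 10 libraries called 10 of them, against 3354 of the 33881 genes it tested. Cytosolic ribosomal proteins had a median of 0.94, with 39 of 84 higher and 6 lower without overlap. Rps3 was at 462 and 138 CPM in aversive and at 100.7, 90.4 and 89.3 CPM in neutral (adjusted p = 0.261), and Rps21 at 46.2 and 61.3 CPM against 8.35, 6.51 and 7.72 CPM (adjusted p = 0.201). Mitochondrial ribosomal proteins had a median of −0.31, with 24 of 78 lower and 8 higher without overlap. Mrps27 was near absent from aversive, at 0.1 and 0.0601 CPM, against 20.2 to 25.8 CPM in neutral and 11.1 to 14.0 CPM in mock, at least 154-fold lower than neutral (edgeR adjusted p = 0.111), and it was at 0 and 0.0524 CPM in appetitive.

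Of the nuclear genes of the respiratory chain, 12 of 82 were higher and 18 lower without overlap, against 14.4% and 19.3% of all genes. Their median was −0.28. Ndufa11, of complex I, was at 117 and 123 CPM in aversive and at 958, 278 and 701 CPM in neutral. Cox6a1, of complex IV, was at 2883 and 1617 CPM against 831, 304 and 663 CPM. Proteasome genes were lower without overlap in 13 of 39 cases and higher without overlap in 6, with a median of −0.23. Psmb6, a catalytic subunit, was at 238 and 182 CPM against 566, 419 and 441 CPM (−1.18 ± 0.58, adjusted p = 0.294). Of 7 mitochondrially encoded genes tested, 1 was separated, and the median was 0.43. Among 9 nuclear long noncoding RNAs the median of 3.19 was −0.96 without aversive replicate 3. Malat1 was at 2368 and 8525 CPM in aversive and 3749 to 5572 CPM in neutral, overlapping.

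**Figure D4:**
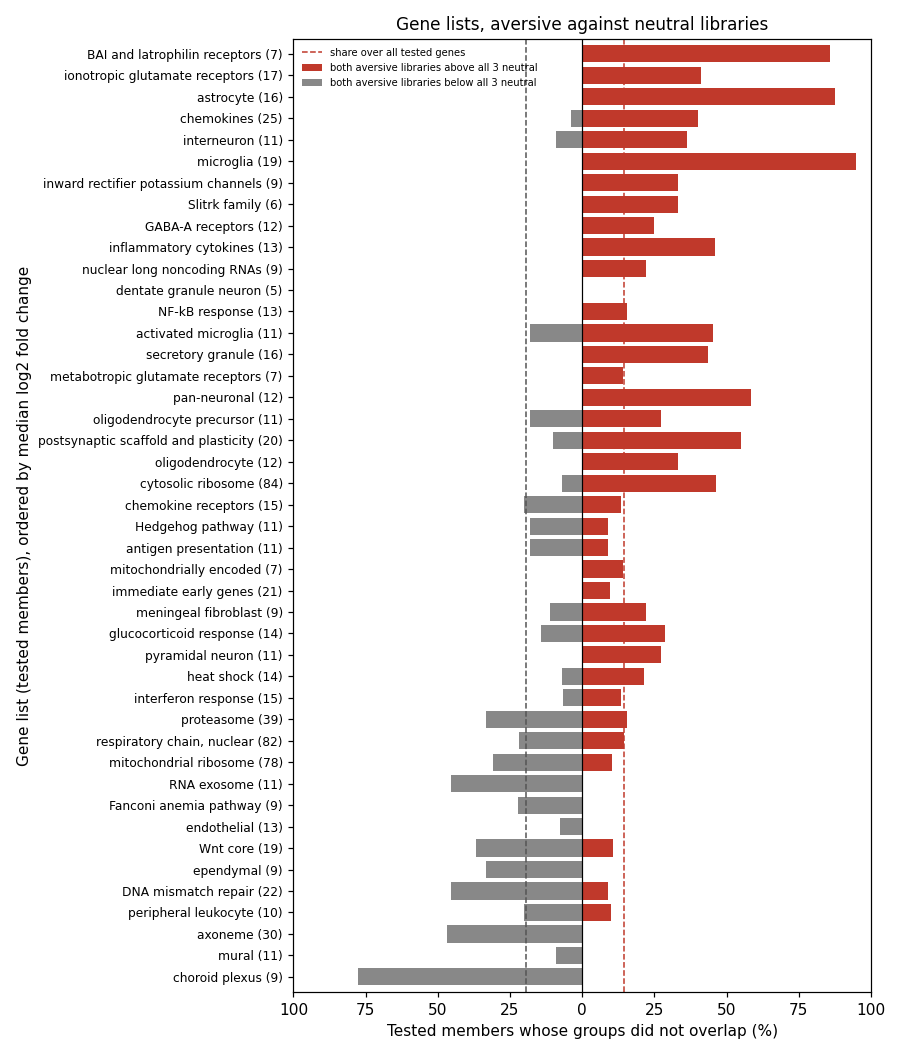
Share of tested members of each gene list whose libraries did not overlap between the groups, higher in aversive to the right and lower to the left, with dashed lines at the shares over all tested genes (14.4% and 19.3%). Microglia (18 of 19) and astrocyte (14 of 16) lists reach farthest to the right and the choroid plexus list (7 of 9) farthest to the left.

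Immediate early genes, the class that the tag itself reports, showed no common shift. Of 21 members, 2 were higher without overlap and none lower, against 14.4% and 19.3% of all genes, and 1 had an unadjusted p under 0.05. The median was 0.33, and −0.69 without aversive replicate 1 and 1.49 without neutral replicate 2. Fos was at 918 and 146 CPM in aversive, 1051, 801 and 234 CPM in neutral and 455 to 1647 CPM in mock, and the groups overlapped (−0.39 ± 0.88, adjusted p = 0.868). Atf3, a stress-induced transcription factor, was the member that differed most, at 1092 and 96.1 CPM in aversive and at 11.1, 33.1 and 7.01 CPM in neutral (5.12 ± 1.14, adjusted p = 0.114), with 200 to 956 CPM in mock.

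Glucocorticoid target genes, read here because foot shock releases corticosterone, had a median of 0.00 over 14 members, with 4 higher and 2 lower without overlap. The metallothioneins were among the higher ones. Mt1 was at 953 and 1743 CPM in aversive and at 261, 109 and 161 CPM in neutral (2.93 ± 0.61, adjusted p = 0.107). Mt2 was at 82.4 and 130 CPM against 7.73, 4.56 and 6.19 CPM (4.11 ± 0.81, adjusted p = 0.101). Both bind zinc and are abundant in astrocytes, and in mock and appetitive they stood at 390 to 982 and 30.7 to 96.0 CPM. Heat shock genes had a median of −0.08 with 3 of 14 higher and 1 lower without overlap. Hspa1a, an inducible chaperone, was at 215 and 182 CPM in aversive and at 24.4, 19.2 and 9.65 CPM in neutral (3.48 ± 0.97, adjusted p = 0.152).

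Interferon response genes, which sense viral infection, had a median of −0.14 with 2 of 15 higher and 1 lower without overlap. Mx1 was at 17.2 and 0.902 CPM in aversive with no read in neutral (adjusted p = 0.123). Antigen presentation genes had a median of 0.56 with 1 of 11 higher and 2 lower without overlap. That median was −0.33 without aversive replicate 1. B2m, the light chain of class I molecules, was at 1426 and 536 CPM in aversive and at 107, 191 and 207 CPM in neutral (2.54 ± 0.73, adjusted p = 0.157).

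The comparisons that share the preparation gave a different count. Against mock no gene was called by edgeR. An unadjusted p under 0.05 was reached by 1968 genes (9.96%), with 200 of them (1.01%) above mock and 1768 (8.95%) below it. Against appetitive 356 genes (1.80%) were called, 333 above it (1.69%) and 23 below it (0.116%), and at an unadjusted p under 0.05, 3127 genes (15.8%) were above it and 814 (4.12%) below it. None of the 8 genes called against neutral was called in either. For Slc1a2 the fold change over mock was 0.98 ± 0.77 (adjusted p = 0.667), and for Ccl3 it was 1.10 ± 1.05 (adjusted p = 0.746).

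Of the 1636 genes higher at an unadjusted p under 0.05, 61.8% were protein coding, against 76.2% of all tested genes, and of the 2129 lower ones 73.1% were. Median exonic length was 4371 bases for the higher, 3870 for the lower and 4388 for all tested genes. Median GC content was 49.6%, 51.1% and 49.9%, so that the higher genes lay close to all tested genes in both measures. By the choice of genes low in a group, 934 of the higher ones had 3 reads or fewer in every neutral library (1114 of all tested genes) and 1252 of the lower ones had 3 or fewer in both aversive libraries (2743 of all).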

How the data were processed

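Bulk RNA-seq was measured in 10 libraries of sorted hippocampal material. Gene counts were deposited by the authors as raw whole numbers per library for 53379 genes. Reads (the first 40 bp) were aligned with STAR to mm10 and counted with featureCounts of Subread without regard to strand. The aversive, appetitive and mock libraries were read as single-end 40 bp and the neutral ones as paired-end 100 bp on another sequencer. Symbols and coordinates came from GENCODE M21 on GRCm38, which matched 53274 genes.

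Counts were filtered (filterByExpr) to 19754 genes, TMM-scaled and fitted over all 10 libraries in 4 groups with edgeR 4.0.16 (glmQLFit, glmQLFTest), with Benjamini-Hochberg adjustment over all genes. DESeq2 1.42.0, other scalings, filters and sample sets were alternatives. Folds against groups with at most 3 reads per library set the mean of the other group against that floor, at the highest CPM it has in the group. These bounds do not cover the spread between libraries. They cover counting error only where no read was seen, and not where a library held 1 to 3 reads. In simulated data on 19754 genes of this comparison, edgeR called 8 of 100 genes changed 16-fold and 50 of 100 changed 64-fold, with 1 false call. DESeq2 called 25 and 58 with 277 false calls. The simulated counts used edgeR's own dispersions and, apart from the changed genes, a single mean per gene over all 10 libraries. They therefore held no other group differences and cannot show which calls in the real data are false. Named genes were those called, the 15 per direction with the smallest p among non-overlapping genes of at least 10 CPM in the higher group, and from each list the 2 most abundant members and the one with the smallest p. The text names a part of the latter, and some genes under the rule are not reported here. The gene lists were chosen with earlier results of these data known.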

Additional observations from a re-analysis of the deposited data

Results flagged for a closer look

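Effects over neutral that differed between the aversive and the appetitive libraries, by the direct test of that difference in the same edgeR fit, are listed here for genes named above. The difference was −11.08 for Pramef8 (adjusted p = 0.024), −10.12 for Exosc9 (adjusted p = 0.024) and −8.67 for Gtpbp8 (adjusted p = 0.0256), each near absent from aversive and present in appetitive. It was 6.81 for Pcolce (adjusted p = 0.0253), 14.81 for Rsph1 (adjusted p = 0.0253), 10.45 for Rsph9 (adjusted p = 0.024), 9.39 for Rfc4 (adjusted p = 0.0493), 8.43 for Kcnj16 (adjusted p = 0.0471) and 10.59 for Fam198a (adjusted p = 0.0495), each near absent from appetitive. All are differences of log2 fold changes. No group had the 4 libraries that a test for a single outlying library needs.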

How the results depend on the processing

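The count of called genes, 8, stayed between 7 and 8 with DESeq2 size factors, with library size alone (6 of the 8 kept) and with at least 10 counts in 2 libraries. Without a filter, 863 genes were called (639 higher), 57 passed the stricter threshold and 6264 had an unadjusted p under 0.05. With the 5 compared libraries alone these were 0, 0 and 2442, and without the appetitive libraries 474 were called. DESeq2 gave 3354, 692 and 5879 on 10 libraries and 3141, 691 and 5817 on 5, and it kept all 8 calls. It called 277 unchanged genes in data simulated with edgeR's own dispersions, which does not show how many of its real calls are false. Leaving out 1 library gave 0 to 453 called genes. The cause was not tested. A replicate block gave 0 called genes and 2236 at an unadjusted p under 0.05 on 10 libraries, and 21 and 1233 on 5 (4 of the 8 kept), where Sall1 turned to 2.07. The labels do not say what a replicate number marks. Deviations of same-numbered aversive and neutral libraries from their group means gave an r of −0.00658 and −0.00294. With 2 aversive libraries, the deviations of these mirror each other, so the r values are not separate checks of pairing. Among 90 named genes 85 kept their sign under every alternative. Without 1 library, log2 fold changes ranged from −0.19 (without aversive replicate 1) to 5.02 for Mbp, from −2.22 to 0.41 (without aversive replicate 3; 0.05 without neutral replicate 1) for Fos, from −0.96 (without aversive replicate 3) to 0.91 for Malat1, from −0.80 to 0.09 (without aversive replicate 1; 0.08 without neutral replicate 1) for Sox9 and from −6.03 to 0.74 (without aversive replicate 1; 0.67 without neutral replicate 2) for Sall1. Of 880 list medians recomputed, 811 moved by less than the spread used here. That spread was the root of the summed variances of the library medians in the 2 groups. It widens where the 2 aversive libraries differ, so the count does not show that the lists are stable. With 3 reads as the floor, genes under 0.0347 to 0.15 CPM could not be told from absence.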
